A study of Mus musculus with 5 samples.

Results

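Dux, 4 copies of Zscan4, Zfp352, Ubtfl1, Usp17le, Usp17lc and Crxos were examined as genes of the 2-cell state. They were taken by name from the table of gene expression, and all 10 were among its 24016 genes. They had been chosen on the values of NOD against B6 in these same libraries, so every value of that comparison is given as a description of the genes and not as a test. Messenger RNA of 5 mouse embryonic stem (ES) cell libraries had been sequenced as single-end 50-base reads that keep the strand. ES cells are derived from the inner cell mass of the blastocyst. NOD1 and NOD5 were 2 libraries of the non-obese diabetic (NOD) strain, in which autoimmune diabetes arises spontaneously. B6 (C57BL/6, no autoimmune disease), NZB (NZB/BlNJ, prone to haemolytic anaemia) and v6.5 (a C57BL/6 and 129S4/SvJae cross used widely for gene targeting) gave 1 library each. No engineered allele is named for any line, and all were grown without feeder cells in 2i medium, which blocks the kinases MEK and GSK3. The study names NOD lines 5 and 6 as male, and the sources used here give no sex for NOD1 or the other lines. The authors' command names the NOD5 library with 5 and 6 joined and lists 2 B6 directories but none for v6.5. Whether the NOD5 library holds 1 line is therefore not known, and the remaining column is called the library labelled v6.5.

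In the mouse embryo the genome is switched on mainly at the 2-cell stage, and a small set of genes and retroviral elements is transcribed then for a short time. DUX is a homeobox transcription factor that switches on many of these genes, among them Zscan4, Zfp352 and the Usp17l family. In ES cell cultures the same genes are known to be expressed in rare cells that pass in and out of a 2-cell-like state, while most cells keep them silent. A library of many cells therefore cannot tell more cells in that state from more RNA in each such cell, and the 2 cannot be told apart here.

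The 4 Zscan4 copies lie in 1 cluster on chromosome 7, and their promoters are shown because all 4 carry the same site and yet were read at unlike levels. The sequences are RefSeq promoters on GRCm38.p6, each 181 bases long and ending before the annotated gene start. The first capitals mark a match to the site that mouse DUX is known to bind, searched as TGATTNNATCA on both strands. The second capitals mark TATAAAA, the TATA box motif, searched on the gene's strand.
Zscan4b, chr7:10905051-10905231, minus strand: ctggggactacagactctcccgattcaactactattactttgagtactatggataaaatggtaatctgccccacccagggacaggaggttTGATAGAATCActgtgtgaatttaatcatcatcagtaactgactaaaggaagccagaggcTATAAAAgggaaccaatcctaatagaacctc
Zscan4d, chr7:11166183-11166363, minus strand: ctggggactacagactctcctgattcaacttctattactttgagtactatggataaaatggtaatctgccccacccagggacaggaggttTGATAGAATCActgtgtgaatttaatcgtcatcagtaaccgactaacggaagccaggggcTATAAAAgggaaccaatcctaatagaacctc
Zscan4c, chr7:11005541-11005721, plus strand: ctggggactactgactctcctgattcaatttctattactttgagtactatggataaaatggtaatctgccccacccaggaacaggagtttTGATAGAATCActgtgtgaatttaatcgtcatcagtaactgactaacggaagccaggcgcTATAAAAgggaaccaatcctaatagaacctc
Zscan4f, chr7:11397734-11397914, plus strand: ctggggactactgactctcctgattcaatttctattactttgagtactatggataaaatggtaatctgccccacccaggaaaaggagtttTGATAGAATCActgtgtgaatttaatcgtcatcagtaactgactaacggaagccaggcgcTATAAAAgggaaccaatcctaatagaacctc

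Promoters were found for 8 of the 10 genes, 10 promoters in all because Crxos has 3. The DUX-type site was present in the 250 bases before the start of 4 of these 8 genes, which were the 4 Zscan4 copies. Of 32851 mouse promoters, 0.177% held it in a window of the same length. In each copy it stood 49 bases before TATAAAA, a motif that 3.02% of all promoters held and that Usp17lc also held. The site that ZSCAN4 itself is known to bind, searched as TGCACAC on both strands, was in none of the 8 and in 3.67% of all promoters. The windows of Zscan4c and Zscan4f differed at 1 of 181 bases (99.4% identity), whereas Zscan4b and Zscan4f differed at 11. A match is a description of the letters and does not show that the site is bound.

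Levels are given as normalised read counts, which are the deposited values divided by a factor for library composition. The recovered reads came to between 7713133 and 21387796 a library. B6 stood apart, since 41.4% of its reads fell on Rn45s, the ribosomal RNA precursor, against 1.95 to 14.3% in the other libraries. One read was worth 1.41 normalised counts in B6, 1.52 in NOD1, 0.484 in NOD5, 1.03 in NZB and 1.35 in v6.5, so NOD5 resolved low levels best. ES cell markers were present in every library, with a summed level of 16761 to 41936 over 5 genes. Summed over 8 fibroblast markers the level was 6974 in B6, 8366 in NZB and 752 in v6.5, but 230 in NOD1 and 196 in NOD5. Summed over 6 trophoblast markers it was 4955 in NOD1 and 3170 in NOD5, against 940 to 1127 in the other 3 libraries. Most of the NOD sums lay on Krt18, Krt8 and Tfap2c, while the defining gene Cdx2 was at 0 and 0.97 in NOD1 and NOD5. Eomes went the other way, at 32.0 in NOD1 and 63.9 in NOD5 against 488 in B6, 77.2 in NZB and 426 in v6.5. The part of these other cell types' genes in the results below was not tested. The 95% intervals given below cover counting error only and are exact only for independent reads. Reads amplified by PCR are not independent molecules, so the intervals may be too narrow.

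Both NOD libraries held more Dux RNA than any other library. Dux (Entrez 664783, mm9 chr10:57693399-57695423, minus strand) was at 62.5 normalised counts in NOD1 and 37.3 in NOD5, a mean of 49.9 ± 17.8 (SD, n = 2). It was at 1.40 in B6 from 1 read, at 3.09 in NZB from 3 reads, and at no read in the library labelled v6.5. The NOD1 level was 44.4 times that of B6, with an interval from 7.53 to 1796 that shows how little 1 read fixes the lower level. The NOD5 level was 26.5 times that of B6 (4.62 to 1060). Against v6.5, taken at the limit of 3 reads that a count of 0 allows, Dux was at least 15.4-fold higher in NOD1 and at least 9.19-fold higher in NOD5. Mouse Dux is encoded in a tandem repeat, and 58.9% of the 50-base windows of its transcript also occur in the transcripts of other annotated genes, so its level rests on the remaining windows wherever only unique reads were counted.

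**Figure D1:**
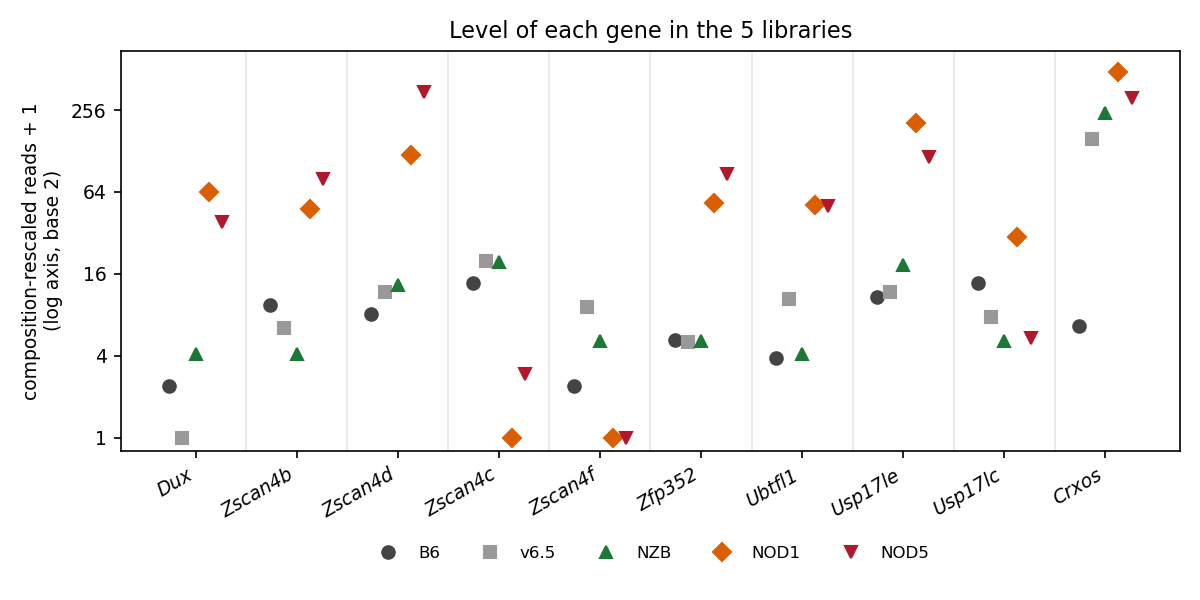
Normalised read count plus 1 (vertical axis, log base 2) of each of the 10 genes (horizontal axis), with 1 point for each of the 5 libraries and no error bars since each point is 1 library. NOD1 and NOD5 are the 2 highest points for 7 of the 10 genes and the 2 lowest for Zscan4c and Zscan4f.

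Over the 10 genes, both NOD libraries were above all 3 others for 7 and below all 3 others for 2. Among the 14280 genes tested over 5 libraries, 18.5% had both NOD libraries above the other 3 and 16.9% had both below, and nothing is read from the difference because the genes were chosen on it. In NOD against B6, 8 of the 10 passed the filter on low counts, and the limma-trend test called 6 of them higher and none lower. It called 3.14% of 14325 genes higher in NOD and 6.19% in either direction. The 6 were Dux, Zscan4d, Zfp352, Ubtfl1, Usp17le and Crxos. The 2 that failed the filter were Zscan4c and Zscan4f, the same 2 that lay below all 3 others in both NOD libraries. That none was called lower therefore follows in part from the filter. All 8 that passed had between 1 (Dux) and 9 (Usp17lc) reads in B6, below the filter's minimum of 10 there. They passed the filter only through their NOD reads, so the calls among them and their median are also shaped by it. Over the alternatives the number of members called higher ran from 0, with no filter or a filter of 1 normalised count in any library, to 7 on equal totals without TMM. Of all genes, these settings called 33, 0 and 2040 higher. With no filter 1 member, Zscan4f, was called lower. The edgeR quasi-likelihood test called 5 higher (not Ubtfl1), beside 514 of all genes. DESeq2 called 4 (neither Dux nor Ubtfl1), beside 394, and a fit of all 5 libraries called 3 (Crxos, Usp17le and Zscan4d), beside 220. The median log2 fold change of the 8 was 3.76 on the scale of value plus 1, against 0.02 over all genes.

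ZSCAN4 proteins carry a SCAN domain and zinc fingers, and are known in mouse ES cells for their part in telomere maintenance. The copies fell into 2 pairs. Zscan4d (mm9 chr7:11746992-11751497, minus strand) was at 119 normalised counts in NOD1 and 345 in NOD5, against 7.04 in B6, 12.4 in NZB and 10.8 in v6.5. Its level over B6 was 16.9-fold in NOD1 (6.94 to 53.5) and 49.0-fold in NOD5 (20.9 to 151). Zscan4b (chr7:11486089-11490399, minus strand) was likewise higher in both NOD libraries than in the 3 others, with 47.2 in NOD1, 79.0 in NOD5, 8.44 in B6, 3.09 in NZB and 5.41 in v6.5. For Zscan4b the ratio to B6 was 5.59 in NOD1 (2.3 to 16.4) and 9.35 in NOD5 (4.20 to 25.9), and it was not among the genes called in NOD against B6.

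Zscan4c and Zscan4f had the opposite order. Zscan4c (mm9 chr7:11591094-11595896, plus strand) was read at 12.7 normalised counts in B6, 18.5 in NZB and 18.9 in v6.5, but at 0 in NOD1 and 1.94 in NOD5. In NOD1, at the limit of 3 reads that a count of 0 allows, it was at least 2.77-fold lower than in B6, and its NOD5 level was 0.153 times that of B6 (0.0344 to 0.548). Zscan4f (chr7:11983264-11987667, plus strand) had no read in either NOD library, 1 read in B6, 4 in NZB and 6 in v6.5. Those counts are too few for a fold change between NOD and B6, and both genes failed the filter on low counts in that comparison.

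The make-up of the Zscan4 reads therefore differed between the libraries as well as their amount. Zscan4c and Zscan4f together took 47.6% of the 21 Zscan4b, c, d and f reads in B6 (exact 95% interval 25.7 to 70.2%). Their share was 62.5% of 32 reads in v6.5 (43.7 to 78.9%) and 59.5% of 37 in NZB (42.1 to 75.2%). In NOD1 it was 0 of 109 reads (0 to 3.33%), and in NOD5 it was 0.455% of 879 reads (0.124 to 1.16%). The intervals of both NOD libraries lay below those of the 3 others. Summed over the 4 copies the level was 29.5 in B6, 43.3 in v6.5 and 38.1 in NZB, against 166 in NOD1 and 426 in NOD5.

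**Figure D2:**
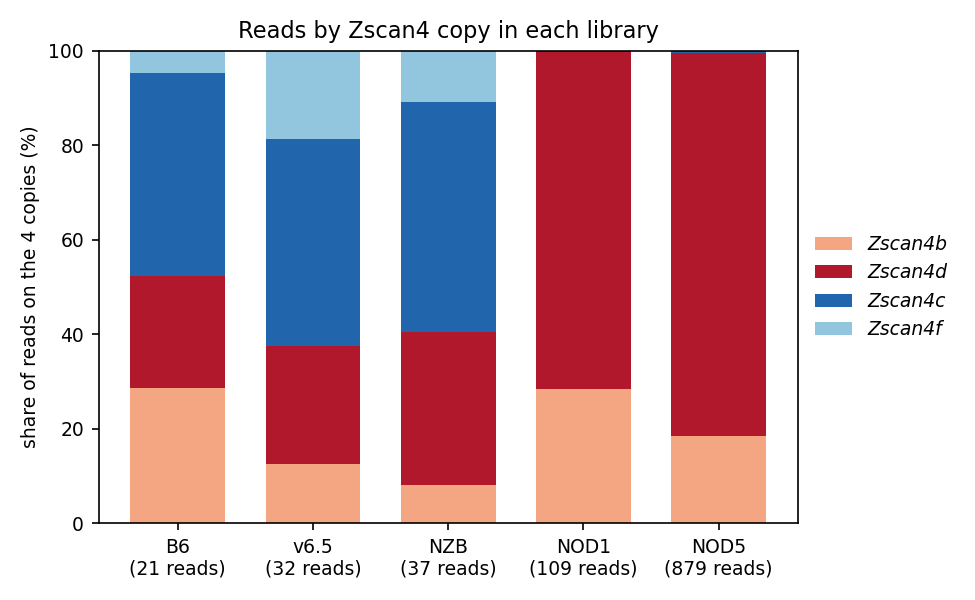
Share of the reads on Zscan4b, Zscan4d, Zscan4c and Zscan4f (vertical axis, percent) in each library (horizontal axis, with its number of reads). Zscan4c and Zscan4f make up 47.6 to 62.5% in B6, v6.5 and NZB but 0 of 109 reads in NOD1 and 0.455% in NOD5.

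The copies are hard to tell apart by 50-base reads, and whether reads that align to several places were counted is not given in the sources used here. Of the 50-base windows in each annotated transcript, 49.6% of Zscan4d, 85.5% of Zscan4c, 92.5% of Zscan4b and 95.3% of Zscan4f also occur in a transcript of another gene. Zscan4f shared most with Zscan4c, which held 81.7% of its windows, and Zscan4c held 39.2% of those of Zscan4b. The pair alike in promoter and transcript was thus also the pair with few or no reads in NOD. Reads of every strain were aligned to the C57BL/6J reference, and how far the copies differ in sequence or number in NOD mice was not tested. Zscan4a, another annotated copy (mm9 chr7:11379590-11384414), was at 39.4 in B6, 28.4 in v6.5, 9.26 in NZB, 47.2 in NOD1 and 155 in NOD5. Both NOD libraries were above the others for it, but the NOD1 level was 1.20 times that of B6 with an interval of 0.696 to 2.07, and it was not called in NOD against B6 (log2 fold change 1.09).

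Zfp352 and Ubtfl1 were low in all 3 other libraries and higher in both NOD libraries. Zfp352, a zinc finger gene transcribed in the early embryo (mm9 chr4:89885511-89892378, plus strand), was at 51.8 normalised counts in NOD1 and 85.3 in NOD5. It was at 4.22 in B6, 4.12 in NZB and 4.06 in v6.5, which rest on 3 or 4 reads each. The ratio to B6 was 12.3 in NOD1 (3.86 to 62.4) and 20.2 in NOD5 (6.80 to 98.9). Ubtfl1, which encodes an HMG-box protein of the preimplantation embryo (chr9:18208862-18215946, plus strand), was nearly equal in the NOD libraries, at 50.3 and 49.9. It was at 2.82 in B6, 3.09 in NZB and 9.47 in v6.5, and the ratio to B6 was 17.9 in NOD1 (4.57 to 154) and 17.7 in NOD5 (4.78 to 148). These 2 genes shared few 50-base windows with other genes, 7.09% for Zfp352 and 4.83% for Ubtfl1.

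The Usp17l genes encode deubiquitinating enzymes, which remove ubiquitin from proteins, and they lie in tandem on chromosome 7. Usp17le (mm9 chr7:111916563-111925984, minus strand) was at 204 normalised counts in NOD1 and 114 in NOD5. It was at 9.86 in B6, 17.5 in NZB and 10.8 in v6.5. Its ratio to B6 was 20.7 in NOD1 (9.79 to 52.5) and 11.6 in NOD5 (5.54 to 29.2). Usp17lc (chr7:110565210-110567688, plus strand) did not follow it, with 29.0 in NOD1 but 4.36 in NOD5, next to 12.7 in B6, 4.12 in NZB and 6.76 in v6.5. For Usp17lc the NOD5 library lay among the others, and the ratio to B6 was 2.29 in NOD1 (0.985 to 5.74) and 0.344 in NOD5 (0.121 to 0.979). Of its 50-base windows 61.6% occur in other genes, against 30.8% for Usp17le.

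The relatives Usp17la and Usp17lb, which were not among the 10, were also higher in NOD1 than in NOD5 and higher in both than in the 3 other libraries. Usp17la was at 195 in NOD1 and 87.2 in NOD5, against 4.22 in B6, 11.3 in NZB and 4.06 in v6.5. Usp17lb was at 267 in NOD1 and 127 in NOD5, against 7.04 in B6, 28.8 in NZB and 9.47 in v6.5. For both, NZB was the highest of the 3 other libraries and was still below the lower NOD library.

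Crxos, a homeobox gene transcribed in the preimplantation embryo and lying opposite the strand of Crx (mm9 chr7:16481473-16489379, plus strand), differed from the other 9 in its pattern. It was at 491 normalised counts in NOD1, 312 in NOD5, 241 in NZB and 156 in v6.5, but at 5.64 in B6 from 4 reads. B6 was thus the library that stood apart, while the other 4 lay between 156 and 491. The ratio to B6 was 87.2 in NOD1 (33.7 to 322), 55.4 in NOD5 (21.5 to 204), 42.8 in NZB (16.5 to 158) and 27.6 in v6.5 (10.5 to 103). Per kilobase of exon Crxos had the highest level of the 10 in both NOD libraries, with 524 normalised counts per kb in NOD1 and 333 in NOD5. On the same scale Zscan4d was at 59.8 in NOD1 and 174 in NOD5, and Dux at 30.9 and 18.4.

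**Figure D3:**
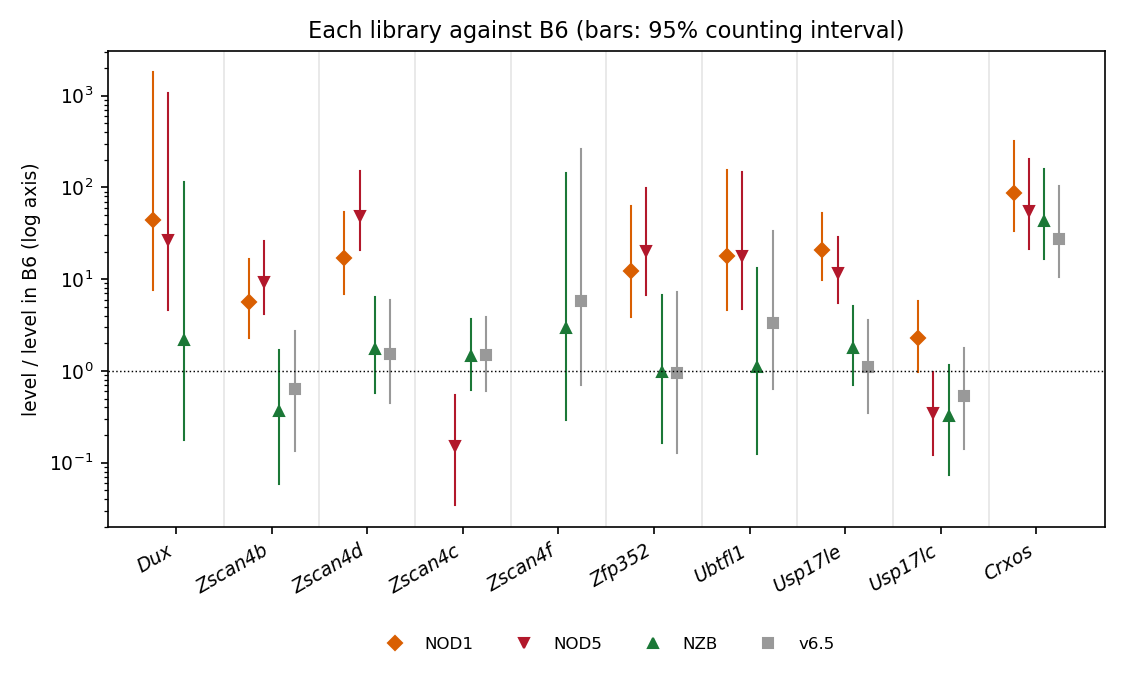
Level of each gene in NOD1, NOD5, NZB and v6.5 divided by its level in B6 (vertical axis, log scale), with the exact 95% counting interval as a bar and libraries without a read left out (Dux in v6.5, Zscan4c in NOD1, Zscan4f in NOD1 and NOD5). Crxos is the gene for which NZB and v6.5 also lie far above 1, at 42.8 and 27.6.

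NZB and v6.5 were compared with B6 to ask whether the genes differed between lines other than NOD. Crxos was higher in NZB than in B6 and was the member called, with a log2 fold change of 5.19 (SE 0.75) and an adjusted p of 0.0195 by limma-trend. Of 9 members tested in NZB against B6, the other 8 were not called, with log2 fold changes from -1.42 for Usp17lc to 0.77 for Usp17le. Of 14280 genes, 0.140% were called. In v6.5 against B6 none of 9 members was called by limma-trend, beside 0.00700% of all genes. There Crxos had a log2 fold change of 4.56 (SE 0.75) and an adjusted p of 0.110. It was the 1 member with an unadjusted p under 0.05 by limma-trend, beside 315 of the 14280 genes. The edgeR quasi-likelihood test on recovered reads called 1 member, Crxos, in each of the 2 comparisons, beside 295 genes in NZB and 33 in v6.5. Zscan4f, which the filter left out, was tested under 2 alternatives with a looser filter or none, and limma-trend called it higher in v6.5 than in B6 in both (adjusted p 0.0430 and 0.0308), from 6 reads against 1 and among 1255 and 1827 genes called. Over 11 alternatives the adjusted p of Crxos ran from 2.04e-08 to 0.171 in NZB against B6 and from 5.93e-06 to 0.562 in v6.5 against B6. Both comparisons share the B6 library with the values that chose the members and have 1 library a group, whose spread was assumed to be that of the NOD lines, so these p-values are not independent of the choice. For every member but Crxos the counting intervals of the ratio to B6 included 1 in NZB and in v6.5, where a read was recorded. That held for Zscan4f in v6.5 too, at 0.699 to 265. These intervals were wide, such as 0.576 to 6.36 for Zscan4d in NZB, so differences of that size were not detectable at this depth.

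The 2 NOD libraries did not differ from each other in 1 direction. Zscan4d was 2.90 times as high in NOD5 as in NOD1 (2.29 to 3.71), and Zscan4b was 1.67 times (1.13 to 2.54) and Zfp352 1.65 times as high (1.13 to 2.45). Ubtfl1 was at 0.992 of its NOD1 level (0.665 to 1.52). Crxos was at 0.636 (0.555 to 0.729), Dux at 0.597 (0.404 to 0.895), Usp17le at 0.560 (0.451 to 0.697) and Usp17lc at 0.151 (0.0600 to 0.349). The relatives went with their families, Zscan4a at 3.27 (2.26 to 4.90), Usp17la at 0.447 (0.354 to 0.565), Usp17lb at 0.478 (0.393 to 0.582) and Usp17ld at 0.495 (0.264 to 0.949). Dux and its known target Zscan4d had opposite orders in the 2 NOD libraries, and how their levels are related was not tested. With 1 library a line these intervals hold counting error only and do not show what a second culture of either line would give.

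**Figure D4:**
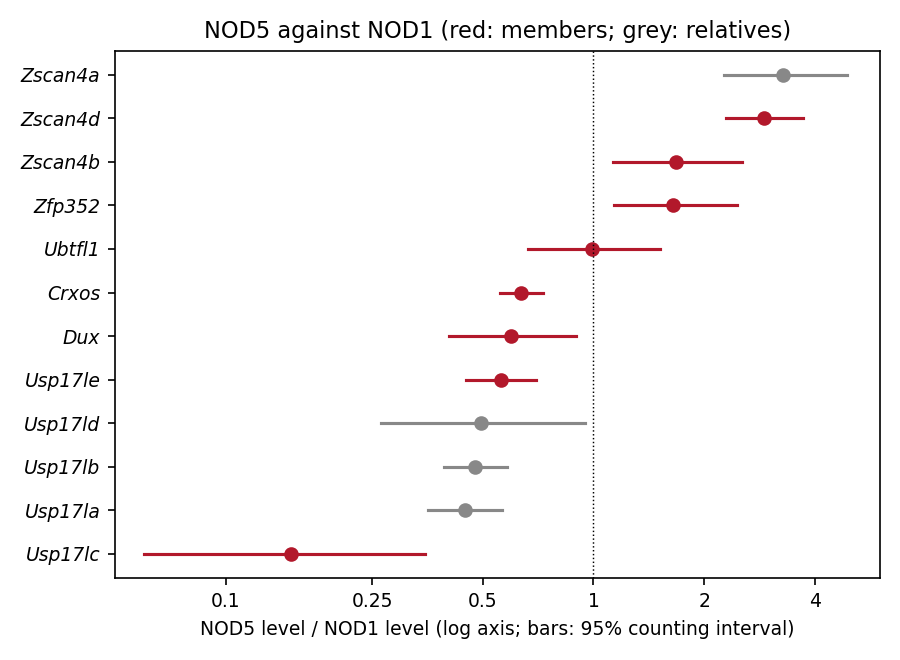
Ratio of the NOD5 to the NOD1 level (horizontal axis, log scale) with exact 95% counting intervals, for 8 members in red and the relatives Zscan4a, Usp17la, Usp17lb and Usp17ld in grey. Zscan4 copies and Zfp352 lie above 1, Ubtfl1 lies at 0.992, and Crxos, Dux and the Usp17l genes lie below 1.

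Many other genes listed for the 2-cell state were also higher in NOD, which is given as a description. A list of 58 such genes was written with earlier results of these data known, so counts of calls on it are not a test. It had 44 in the table, 7 of them without a read in any library. Tdpoz3, Tdpoz4, Gm428, Gm4027, BB287469 and Usp17ld had no read in B6 and passed the filter on low counts through their NOD reads alone. Most of the genes tested, such as Gm2022 with 2 reads and Usp17la with 3, were below the filter's minimum of 10 in B6. They too passed through their NOD reads, so the calls and the median below are shaped by the filter. Of 25 tested, 18 were called higher in NOD than in B6 and none lower, where 3.14% of all genes were called higher. Their median log2 fold change was 4.08, against 0.02 over all genes, and that of the 18 called ran from 3.22 to 6.51. For 17 of the 18, both NOD libraries were above all 3 others, as for 18.5% of all genes, and nothing is read from this since the 18 were called for being higher in NOD. Calls by limma-trend fell to 2 with no filter on low counts and to 0 when the filter asked for 1 normalised count in any library, settings under which 33 and 0 of all genes were called higher.

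The change was largest for Gm2022, at 360 normalised counts in NOD1 and 350 in NOD5, against 2.82 in B6, 2.71 in v6.5 and no read in NZB. Gm2022 had a log2 fold change of 6.51 with an adjusted p of 4.66e-06 by limma-trend. The next were Tdpoz3 (5.46), BB287469 (5.28), Gm4027 (5.27) and Gm12794 (5.03), of which the first 3 had no read in B6, so their fitted log2 fold changes depend on the added 1. Gm2016 (4.64), Usp17la (4.63), Usp17lb (4.51), Gm5039 (4.31) and Gm8994 (4.21) completed the 10 with the largest log2 fold change. Gm5039 was the exception among these in NZB, where it was at 144, against 318 in NOD1, 536 in NOD5, 19.7 in B6 and 18.9 in v6.5. When NZB or v6.5 was set against B6, limma-trend called none of 27 genes of the list tested, with medians of 0.61 and 0.

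**Figure D5:**
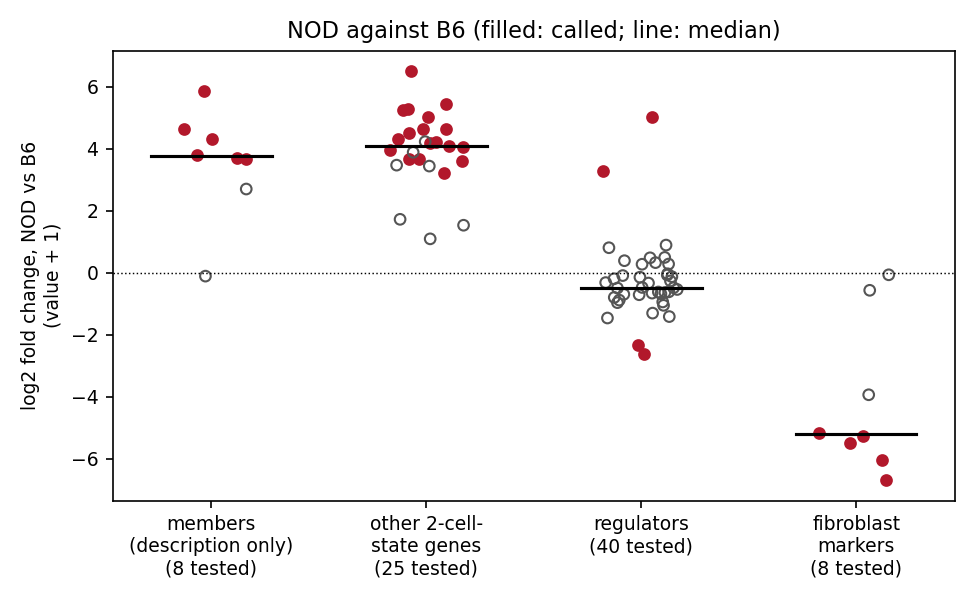
Log2 fold change of NOD against B6 on the scale of value plus 1 (vertical axis) for the members tested, the other 2-cell-state genes, the regulators and the fibroblast markers, where each point is a gene, filled points were called by limma-trend and lines are medians. The median is 4.08 for the other 2-cell-state genes, -0.48 for the regulators and -5.22 for the fibroblast markers.

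Genes that are known or proposed to control the state were listed as well. Of 41 such regulators, 40 were tested, and 2 were called higher and 2 lower in NOD. Over all genes 6.19% were called in either direction, and nothing is read from so few calls. The log2 fold change of the regulators was below 0 for 30 of 40, against 49.3% of all genes, with a median of -0.48 against 0.02. Among 8 genes listed as activators 1 was called higher and 2 lower, and among 32 repressors tested 1 was called higher and none lower. Dppa3, a maternal factor that protects DNA methylation in the early embryo, was higher, at 1051 normalised counts in NOD1 and 1055 in NOD5 against 31.0 in B6, 232 in NZB and 32.5 in v6.5 (log2 fold change 5.03). Zfp42, also called Rex1, a zinc finger gene of naive ES cells, was higher too (3.29), at 2414 in NOD1 and 10226 in NOD5 against 505 in B6, 3218 in NZB and 1789 in v6.5. NZB was above NOD1 for Zfp42, so its groups overlapped. Tet1, which oxidises methylated cytosine, fell by 2.34 on the log2 scale, and Smad7, an inhibitor of TGF-beta signalling, fell by 2.61. For both, NOD1 and NOD5 were below all 3 other libraries.

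Dppa2 and Dppa4, which are known to activate Dux in mouse ES cells, were not called. Dppa2 was at 140 in NOD1 but at 761 in NOD5, next to 628 in B6, 185 in NZB and 627 in v6.5. Dppa4 was at 404 in NOD1 and 988 in NOD5, next to 450 in B6, 447 in NZB and 343 in v6.5. Both were lower in NOD1 than in NOD5, and whether their levels bear on that of Dux was not tested. Trim28 and Kdm1a, which silence retroviral elements and genes of the 2-cell state, had log2 fold changes of 0.28 and -0.09 and were not called.

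The fibroblast markers that moved with NOD were Col1a1, Col1a2, Col3a1, Acta2 and Lox, 5 of 8 called lower with a median of -5.22 over the 8. Of 4 trophoblast markers tested, Krt8 (3.09) and Krt18 (3.48) were called higher and Eomes (-3.41) lower in NOD. Of all 14325 genes tested, 450 were called higher and 437 lower, with a median of 0.02. The summed fibroblast level was above that of B6 in NZB and was 752 in the library labelled v6.5. Whether these markers bear on the levels of the members was not tested.

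The genes whose pattern over the 5 libraries was most like that of these members were sought among the non-members that passed the filter. Likeness was the Euclidean distance of log2(value + 1), centred on each gene's mean, to the median profile of the 7 members averaging at least 10 reads a library. That left out Zscan4c, Zscan4f and Usp17lc, the 3 that were not highest in both NOD libraries, so the profile is high in NOD by construction. The nearest 5 were Pramef25 (distance 0.25), Tdpoz4 (0.30), Ipp (0.81), Gm8994 (0.83) and Gm8300 (0.85). Ipp was at 3997 in NOD1 and 3701 in NOD5, against 158 in B6, 243 in NZB and 208 in v6.5, and the other 4 were on the list of 2-cell-state genes. Crxos, the member with the most reads, was nearest to Nudt10 (1.44), Cps1 (1.66), Rprl1 (1.69), Mmrn2 (1.69) and Ccnb1ip1 (1.93), all farther from it than the 5 above were from the median profile.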

How the data were processed

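The authors base-called with CASAVA 1.8.2, aligned with STAR to mm9 (version 2.2.0c in the submitters' processing notes), counted reads strand by strand over gene exons with HOMER, and ran edgeR through it. The signal values deposited by the authors are gene read counts brought to equal library totals, neither logged nor divided by length. Within 0.05, 100% of values below 3000 were whole multiples of a step, so whole reads were recovered. The deposited exon length column served the per-kilobase levels. The deposited fold changes and p-values of the authors' own test were not used, and 27 symbols turned into dates are not named.

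Values were divided by TMM factors (edgeR 4.0.16) of genes kept by filterByExpr and tested with limma-trend (limma 3.58.1, R 4.3.3) on log2(value + 1), at a Benjamini-Hochberg adjusted p of 0.05 over all genes. NOD against B6 used those 3 libraries, with 1 residual degree of freedom. NZB and v6.5 against B6 used all 5. On equal totals alone the median of all genes shifted by 0.78 (NOD), 0.89 (NZB) and 0.67 (v6.5) on the log2 scale. Ratios between libraries compared reads by exact conditional binomial (Clopper-Pearson) intervals. A count of 0 was set to 3 reads only for the fold bounds given as at least, and was kept as 0 elsewhere. Nothing in the labels says whether the libraries came from separate cultures, so p-values measure only their spread, which may be technical. The members, gene lists and tests were chosen with earlier results of these data known. All 10 members are named; of other lists, the called genes with the largest changes, up to 10, plus Dppa2, Dppa4, Trim28, Kdm1a and the Zscan4 rows. Alternatives covered scaling, pseudocount, filter, test (also DESeq2 1.42.0), libraries and Rn45s. The fitting code was tested on simulated data.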

Additional observations from a re-analysis of the deposited data

Results flagged for a closer look

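Usp17lc lay on opposite sides of B6 in the NOD lines. Its level was 2.29 times that of B6 in NOD1 and 0.344 times in NOD5, and the difference between the lines was not tested against B6, since each line had 1 library. No group had the 4 libraries needed to look for a library far from its group.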

How the results depend on the processing

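Of the 450 genes called higher in NOD than in B6, the count became 2040 on equal totals without TMM, 248 with DESeq2 size factors, 33 with no filter, 0 with a value of at least 1 in any library and 220 with all 5 libraries in the fit. It was 241 with TMM factors from all genes, an alternative chosen after seeing the data. In NZB against B6 the 20 calls became 132 without TMM, 4 with DESeq2 size factors, 1303 with a value of at least 1, 2096 with no filter, 295 with edgeR, 158 with DESeq2, and, chosen after seeing the data, 1 with TMM factors from all genes and 326 without genes that had no NOD read. In v6.5 against B6 the single call became 5 without TMM, 0 with DESeq2 size factors, 3 with a pseudocount of 5, 1255 with a value of at least 1, 1827 with no filter, 33 with edgeR, 24 with DESeq2, 0 with TMM factors from all genes and 34 without genes that had no NOD read. The other 2-cell-state genes called went from 18 to 0 with a value of at least 1 and to 2 with no filter, and the regulators from 4 to 0 and to 1. The cause of these differences was not tested. Of 120 alternative log2 fold changes of members in NOD against B6, 26 moved by more than the SD between the NOD libraries, which was small for Ubtfl1, and 6 changed sign, all of them of Usp17lc (main value -0.11), such as 0.59 without TMM and 1.12 without NOD5. In NZB and v6.5 against B6, 7 and 2 of 116 changed sign, all in members that were not called (Zfp352 and Zscan4b). Leaving out a NOD line left no residual degree of freedom, so it gave values and no test. No paired analysis was possible because the groups share fewer than 2 replicate numbers. Depth limits the low libraries most, where 1 to 9 reads stood behind most members.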

Other observations

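Of 10 early-embryo homeobox genes listed besides Dux and Crxos, 8 were in the table and 3 were tested in NOD against B6. None of the 3 was called by limma-trend, which called 6.19% of all genes, so nothing is read from so few. Obox6, chosen here after its values were seen, was at 297 normalised counts in NOD1 and 194 in NOD5, against 141 in B6, 75.2 in NZB and 32.5 in v6.5 (log2 fold change 0.76).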
